A study of Mus musculus with 6 samples.

Results

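The E2F transcription factors and their dimerization partners were followed in cultured mouse neural stem/progenitor cells (NSPCs) under redox stress. The genes were taken by NCBI gene identifier as the 8 E2F genes, E2f1 (13555), E2f2 (242705), E2f3 (13557), E2f4 (104394), E2f5 (13559), E2f6 (50496), E2f7 (52679) and E2f8 (108961), and the 2 DP genes, Tfdp1 (21781) and Tfdp2 (211586). They make up 10 of the 17254 genes with reads in any library, and all 10 were among the 11717 genes with a mean level of at least 1 FPKM (fragments per kilobase of transcript, scaled to the library total), which were tested. E2F proteins bind the promoters of genes for DNA replication and cell division. E2f1, E2f2 and E2f3 encode activators that are held inactive by the retinoblastoma protein until cyclin-dependent kinases release them late in G1 phase. E2f4 and E2f5 encode repressors that act with the pocket proteins p107 and p130 and the MuvB core in the DREAM complex, E2f6 a repressor that acts with Polycomb proteins, and E2f7 and E2f8 atypical repressors that bind DNA without a DP partner and lower the transcription of G1/S genes, E2f1 among them, later in the cycle.

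The data comprise 6 libraries of NSPCs in N2 medium with EGF and bFGF, harvested after 48 h. Of these, 2 were mock-treated controls, 2 had received paraquat (PQ), a pro-oxidant that generates superoxide inside cells, and 2 had received N-acetylcysteine (NAC), a thiol antioxidant. The labels of the first control and PQ libraries give a dose of 5 µM for PQ, the strain C57BL/6 and the genotype "Ink/Ark knockout", whereas those of the other 4 libraries name no dose, strain or genotype. According to the methods, all NSPCs came from one immortalized Ink/Arf-/- culture derived from the neonatal subventricular zone, a mixture of quiescent and activated stem cells, neuronal precursors and oligodendroglial progenitors. The study reports that RNA-seq was replicated, but whether the libraries of a group were separately treated cultures was not established here, so the p-values measure the spread between these libraries, which may be technical. The expected counts per library summed to 9849392 and 10040827 in control, 10388731 and 9680436 in PQ, and 10698241 and 9907726 in NAC.

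The labels divide the libraries by RNA kit and sequencer. Control 1 and PQ 1 are labelled NucleoSpin and Illumina, and control 2, PQ 2 and both NAC libraries TRIZOL and BGISEQ-500. PQ could therefore be compared with control within each preparation, and NAC with control 2 alone. Cdkn2a, the Ink4a/Arf gene that restrains cyclin D kinases and Mdm2, was counted in every library, at 14.3 and 16.4 CPM (normalised counts scaled to a common library total) in control, 11.5 and 13.6 in PQ and 12.1 and 13.0 in NAC. Counts per gene do not show which of its exons the reads came from.

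NSPC markers were abundant, with Vim, an intermediate filament gene, the most abundant of its list at a mean of 2073 FPKM. Of the 10 stem and progenitor markers, 8 were tested, while Prom1 and Hes5 lay near 0. The summed FPKM of the list was 3387 and 3448 in control, 3712 and 3768 in PQ, and 2668 and 2588 in NAC. Among them, PQ moved Nes by 0.34 on the log2 scale (adjusted p = 0.0086 by the quasi-likelihood test of edgeR, used throughout) and Slc1a3 by -0.48 (adjusted p = 0.0016). NAC moved Vim by -0.75 (adjusted p = 3.8e-06 by edgeR), Sox2 by -0.31 (adjusted p = 0.027) and Slc1a3 by 0.29 (adjusted p = 0.034). The Nes call was lost without PQ 1 or PQ 2. The Sox2 and Slc1a3 calls in NAC were lost without either NAC library, and also without control 1 for Sox2 and without control 2, PQ 1 or PQ 2 for Slc1a3. Sox2 was at -0.19 without control 1 and Slc1a3 at 0.19 without control 2. With the RNA kit and sequencer as a covariate both calls were also lost (adjusted p = 0.161 for Sox2 and 0.064 for Slc1a3 by edgeR).

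Control cells expressed all the E2F genes, most of all the repressor E2f4. In FPKM, which allows levels of different genes to be compared, the control libraries held 29.3 and 33.1 for E2f4, 21.3 and 27.3 for E2f1, 18.5 and 21.4 for E2f8, and 17.5 and 15.4 for E2f5. They held 13.4 and 12.2 FPKM for E2f6, 7.57 and 9.20 for E2f3, 3.86 and 5.03 for E2f7, and 3.16 and 4.12 for E2f2. In this order the neighbours E2f1 and E2f8, and E2f7 and E2f2, overlapped between the libraries, and the other neighbours did not. Tfdp1, the main DP partner, stood at 92.7 and 102.5 FPKM in control and Tfdp2 at 8.69 and 8.36, a ratio that ranged from 10.5 to 12.4 over the 6 libraries.

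**Figure D1:**
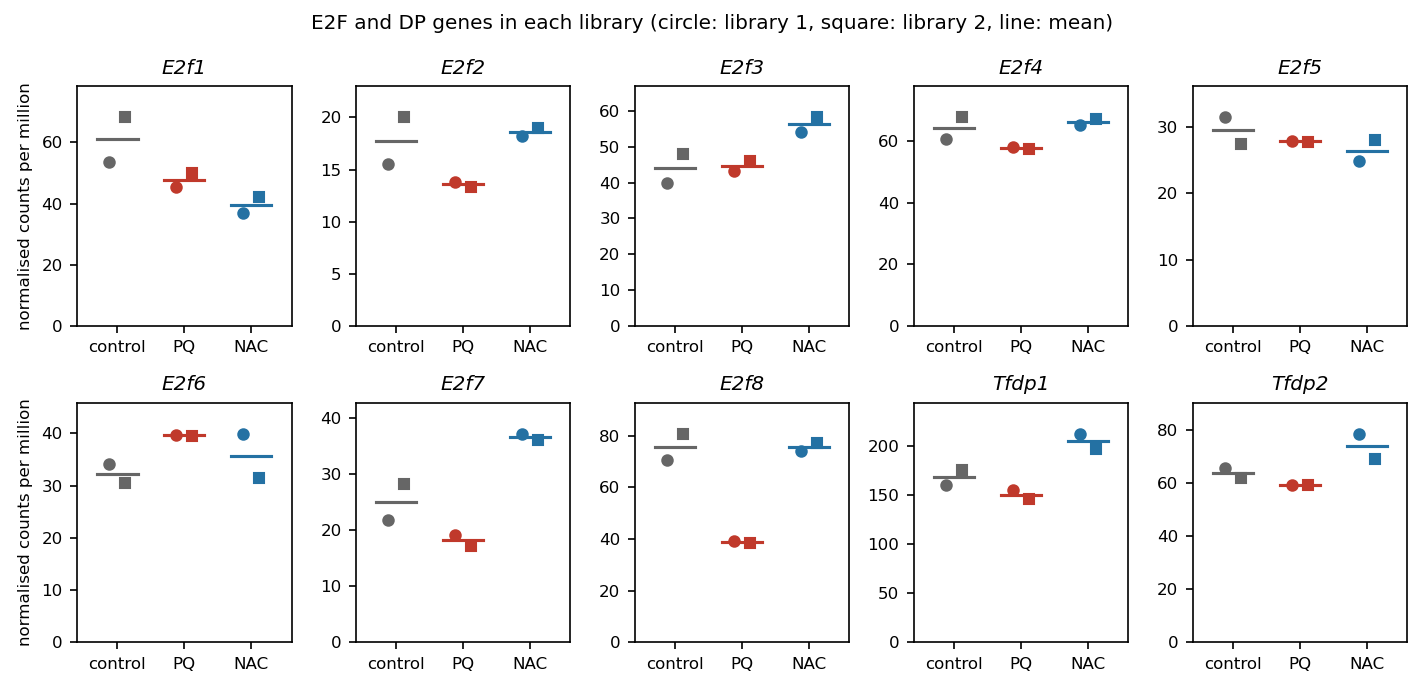
CPM (vertical axis, from 0) of the 10 E2F and DP genes in each library, by treatment, with a line at the group mean. E2f8 stands at 39.3 and 38.5 in PQ against 70.6 and 80.7 in control, and E2f1 is lowest in the NAC libraries, at 37.0 and 42.2.

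PQ lowered the atypical repressor E2f8, and less firmly E2f7. Both were called (adjusted p under 0.05) when PQ was compared with control, 2 of the 10 members, and both were lower. Across all 11717 genes tested, 19.2% were called in this comparison, 9.76% higher and 9.45% lower, so the share of members called lay near the background. Leaving out PQ 1 left 866 genes called in place of 2250. By class, 2 of the 5 repressor genes were called and none of the 3 activators. For the activators edgeR gave 2 with an unadjusted p under 0.05, E2f1 and E2f2, and DESeq2 and limma called 0. In all results from these bulk cultures, fewer cells in a given state and less RNA per cell cannot be told apart.

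E2f8 had 70.6 and 80.7 CPM in control, 39.3 and 38.5 in PQ, and 74.0 and 77.0 in NAC. Both PQ libraries lay at about the same level, below all other libraries, and the control and NAC libraries overlapped. The log2 fold change in PQ was -0.96 (SE 0.11, adjusted p = 7.6e-06 by edgeR), with -0.85 within the NucleoSpin libraries and -1.07 within the TRIZOL libraries. The fall was called in all 14 alternative analyses, with adjusted p from 1.1e-10 to 0.0015. In NAC the log2 fold change was -0.004 (SE 0.10, adjusted p = 0.987).

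E2f7, which shares this repressor role, had 21.9 and 28.2 CPM in control, 19.1 and 17.2 in PQ, and 37.1 and 36.1 in NAC. The 3 groups did not overlap, with NAC highest and PQ lowest. The log2 fold change was -0.46 in PQ (SE 0.15, adjusted p = 0.035 by edgeR) and 0.55 in NAC (SE 0.14, adjusted p = 0.0084). The PQ call depended on single libraries. It was lost without control 2 (-0.27, adjusted p = 0.298), without PQ 1 (-0.54, adjusted p = 0.099) and without PQ 2 (-0.39, adjusted p = 0.183), and with DESeq2 (adjusted p = 0.080), the replicate block (adjusted p = 0.060), limma on log2(FPKM + 1) (adjusted p = 0.128) or log2(FPKM + 0.1) (adjusted p = 0.114) and only the 4 libraries compared (adjusted p = 0.051). It was thus kept in 6 of 14 alternatives. Within preparations the PQ difference was -0.19 for NucleoSpin and -0.71 for TRIZOL. The NAC call was lost without control 1 (0.38, adjusted p = 0.095) and without NAC 1 (0.53, adjusted p = 0.065), and against control 2 alone the NAC mean differed by 0.38.

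NAC lowered E2f1, the activator that is also linked to apoptosis. Its CPM were 53.7 and 68.2 in control, 45.5 and 50.02 in PQ, and 37.0 and 42.2 in NAC. The NAC libraries lay lowest, the PQ libraries between them and control, and no 2 groups overlapped. The log2 fold change in NAC was -0.63 (SE 0.13, adjusted p = 0.0014 by edgeR), called in all 14 alternatives with adjusted p from 2.9e-05 to 0.035, and the NAC mean lay 0.79 below control 2 on the log2 scale. In PQ the value was -0.35 (SE 0.12, adjusted p = 0.052), past the threshold without control 1 (-0.52, adjusted p = 0.0051) and with the RNA kit and sequencer as a covariate (-0.35, adjusted p = 0.046). Without control 2 it was -0.17 (adjusted p = 0.408). The expected counts of E2f1 were fractional in all 6 libraries, as arises when reads are shared with another gene. Its level is therefore less certain. The other members had whole counts, but those of E2f5 and Tfdp1 are also less certain, as described under the processing.

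The other members called in NAC were E2f3 and Tfdp1, making 4 of 10 with E2f1 and E2f7. Across all genes tested, 18.7% were called in NAC against control, 9.01% higher and 9.64% lower, and leaving out NAC 1 left 1286 genes called in place of 2186. By class, 2 of the 3 activators were called, in opposite directions, and 1 of the 5 repressors. E2f3, an activator, had 40.0 and 48.1 CPM in control, 43.4 and 46.0 in PQ, and 54.2 and 58.2 in NAC. Only the NAC libraries stood apart. Its log2 fold change in NAC was 0.35 (SE 0.11, adjusted p = 0.038 by edgeR). It remained called in 3 of 14 alternatives, and each left-out library except control 2 ended the call, with 0.23 (adjusted p = 0.264) without control 1, 0.40 (adjusted p = 0.087) without NAC 1, 0.30 (adjusted p = 0.212) without NAC 2, and an adjusted p of 0.054 without PQ 1 and 0.053 without PQ 2. All its reads were assigned to a single transcript, so its long and short isoforms were not separated. Tfdp1 had 160.7 and 175.8 CPM in control, 155.2 and 145.9 in PQ, and 212.4 and 197.4 in NAC, and its groups did not overlap. Its log2 fold change in NAC was 0.28 (SE 0.10, adjusted p = 0.044), called in 5 of 14 alternatives. It was lost without control 1 (0.22, adjusted p = 0.197), NAC 1 (0.23, adjusted p = 0.254), NAC 2 (0.34, adjusted p = 0.078), PQ 1 or PQ 2 (both with an adjusted p of 0.069). With the RNA kit and sequencer as a covariate the adjusted p was 0.192 for E2f3 and 0.135 for Tfdp1 by edgeR.

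The remaining members passed the threshold in neither treatment against control. E2f2, an activator, had 15.5 and 20.0 CPM in control, 13.9 and 13.4 in PQ, and 18.2 and 19.0 in NAC. Both PQ libraries lay below control, with a log2 fold change of -0.38 (SE 0.16, adjusted p = 0.106 by edgeR), which passed the threshold without control 1 (-0.56, adjusted p = 0.035) and was -0.19 without control 2 (adjusted p = 0.545). E2f6 had 34.1 and 30.5 in control, 39.7 and 39.6 in PQ, and 39.9 and 31.6 in NAC. It was the one member with a PQ value well above 0, at 0.29 (SE 0.13, adjusted p = 0.122), whereas its NAC libraries spanned control and PQ. E2f4 had 60.7 and 67.8 in control, 58.1 and 57.6 in PQ, and 65.3 and 67.2 in NAC. E2f5, which acts in parallel with it, had 31.4 and 27.5 in control, 27.9 and 27.8 in PQ, and 24.8 and 28.1 in NAC. Their log2 fold changes ranged from -0.16 to 0.04 and were within 2 SE of 0. Tfdp2 had 65.9 and 62.1 in control, 59.5 and 59.4 in PQ, and 78.7 and 69.4 in NAC, with -0.11 (SE 0.10) in PQ and 0.21 (SE 0.10, adjusted p = 0.168) in NAC.

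**Figure D2:**
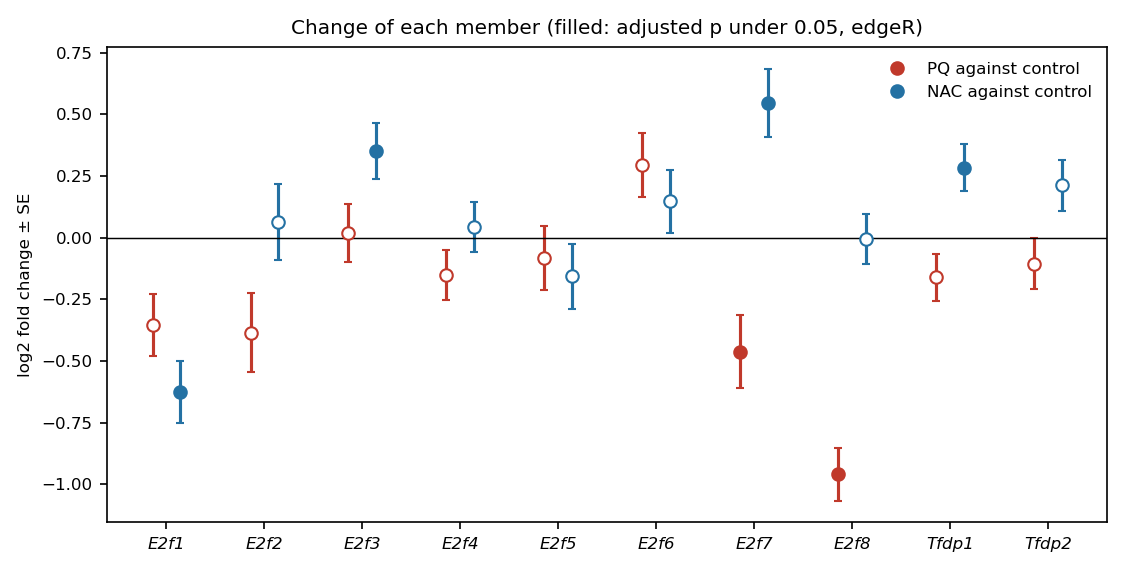
Log2 fold change with its SE (vertical axis) of each E2F and DP gene in PQ and in NAC against control, filled where the adjusted p by edgeR was under 0.05. E2f8 and E2f7 are filled and below 0 in PQ, and in NAC E2f1 lies at -0.63 and E2f7 at 0.55.

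Compared directly, PQ and NAC cells differed in more of the family. E2f2, E2f3, E2f7, E2f8, Tfdp1 and Tfdp2 were called, 6 of 10, and all 6 were lower in PQ. Across all genes tested 31.6% were called, 16% higher and 15.7% lower in PQ, and 2343 genes in place of 3708 without PQ 1. E2f7 had a log2 difference of -1.01 (SE 0.14, adjusted p = 2.7e-05 by edgeR), E2f8 of -0.96 (SE 0.11, adjusted p = 1.9e-06) and Tfdp1 of -0.45 (SE 0.10, adjusted p = 0.0015), each called in all 14 alternatives. E2f2 at -0.45 (adjusted p = 0.039) and E2f3 at -0.33 (adjusted p = 0.033) each lost the call without PQ 1, PQ 2, NAC 1 or NAC 2, with adjusted p up to 0.162 and 0.192, and Tfdp2 at -0.32 (adjusted p = 0.025) without PQ 1, PQ 2 or NAC 1, with adjusted p up to 0.244. The RNA kit and sequencer as a covariate also ended these calls, at an adjusted p of 0.169 for E2f2, 0.192 for E2f3 and 0.053 for Tfdp2. The replicate block ended those of E2f2 and E2f3 (adjusted p = 0.057 and 0.053 by edgeR). E2f1 lay the other way, at 0.27 (SE 0.13, adjusted p = 0.114), and at 0.18 without NAC 1. With the RNA kit and sequencer as a covariate it was called higher in PQ, at 0.39 (adjusted p = 0.036 by edgeR). The 3 comparisons share libraries and are not independent.

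The balance of activators and repressors was read from FPKM. The activators took 27.9 and 31.8% of the summed E2F FPKM in control, 28.5 and 30.3% in PQ, and 24.7 and 26.6% in NAC. By FPKM the PQ libraries lay within the control range and the NAC libraries below it. With 2 libraries against 2, an exact two-sided permutation test cannot give a p below 0.333, and the shares are given as values. Taken from normalised counts without correction for length, the shares were 33.3 and 36.7% in control, 35.8 and 37.7% in PQ, and 31.2 and 33.2% in NAC. By counts PQ 2 thus lay above the control range, and NAC 2 only just below control 1.

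E2f7 and E2f8 together took 19.5 and 20.7% of the E2F FPKM in control, 13.4 and 12.7% in PQ, and 22.4 and 22.4% in NAC. The PQ libraries were lowest. E2f8 had 0.868 and 0.782 times the FPKM of E2f1 in control, 0.570 and 0.509 times in PQ, and 1.32 and 1.21 times in NAC, so E2f8 exceeded E2f1 only in the NAC libraries. E2f4 and E2f5 kept between 38.0 and 42.8% of the sum in all 6 libraries.

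**Figure D3:**
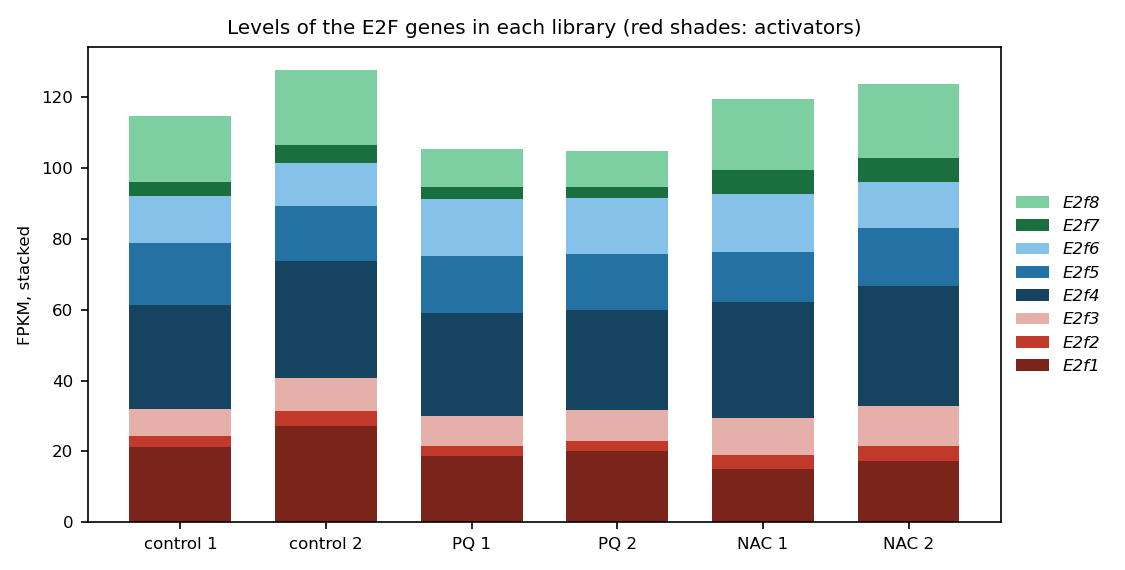
FPKM of the 8 E2F genes (vertical axis), stacked for each of the 6 libraries, with the activators in red shades at the base. The E2f8 segment is smallest in PQ, at 10.6 and 10.2 FPKM, and the E2f1 segment is smallest in NAC, at 15.1 and 17.4 FPKM.

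The genes whose profile over the 6 libraries lay nearest to the called repressors were taken by the root mean square difference of centred log2 values. For E2f8 they were Fgfr3, an FGF receptor gene (0.03), Espl1, which encodes separase (0.05), and Pold1, a DNA polymerase delta subunit (0.06). For E2f7 they were Mcm4, a subunit of the replicative helicase (0.06), Fndc4 (0.06) and Hey1, a Notch effector (0.07).

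The pocket proteins and cyclin-dependent kinase regulators that control E2F activity moved in part. Of the 3 pocket protein genes, Rbl1, which encodes p107, was the one called in PQ, where it fell by 0.58 on the log2 scale (SE 0.10, adjusted p = 0.00063 by edgeR). Rb1 stood at 0.06 in PQ and -0.29 in NAC (adjusted p = 0.068), and Rbl2, encoding p130, at -0.09 and 0.25 (adjusted p = 0.102). Of the 10 G1 cyclin and kinase genes, 4 were lower in PQ. Ccna2 had -0.82 (adjusted p = 1.3e-05), Ccnd2 -0.40 (adjusted p = 0.0036), Ccne2 -0.38 (adjusted p = 0.027) and Cdk4 -0.26 (adjusted p = 0.050, just under the threshold before rounding). In NAC, Ccne2 rose by 0.45 (adjusted p = 0.0078) and Ccnd2 fell by 0.38 (adjusted p = 0.0054). The Cdk4 call was kept in 4 of 14 alternatives, the Ccne2 call in PQ in 8, and that in NAC in 11, lost without control 1 or NAC 1 and with the RNA kit and sequencer as a covariate (adjusted p = 0.065). The Ccnd2 calls were lost without PQ 1 and without NAC 1. In PQ the Ccne2 call was lost without control 2 (-0.24, adjusted p = 0.224), PQ 1 or PQ 2, and the Cdk4 call without any one of these or either NAC library.

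Cdkn1a, which encodes the kinase inhibitor p21, stood at 474 and 468 CPM in control, 1090 and 1035 in PQ, and 223 and 255 in NAC. It was high in PQ and low in NAC, with no overlap. Its log2 fold change was 1.17 in PQ (SE 0.09, adjusted p = 2.8e-07 by edgeR) and -0.98 in NAC (SE 0.09, adjusted p = 6.1e-07). Cdkn2c, encoding the INK4 inhibitor p18 and a known E2F target, fell in PQ, at -0.65 (adjusted p = 0.0012). The other 4 CDK inhibitor genes tested were not called, and Cdkn1c lay below the filter.

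Of 8 genes for the MuvB core and its partners, 3 were lower in PQ. Mybl2, encoding B-MYB, had -1.04 (SE 0.13, adjusted p = 2.2e-05 by edgeR), Foxm1 -0.70 (SE 0.11, adjusted p = 0.0002) and the core subunit Lin54 -0.51 (SE 0.11, adjusted p = 0.0032, lost without PQ 1). In NAC, Mybl1, encoding A-MYB, was lower, at -0.60 (SE 0.12, adjusted p = 0.0015). The median of the list was -0.42 in PQ and 0.13 in NAC, against -0.001 and -0.002 over all genes tested.

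Most G1/S genes known as E2F targets fell in PQ. The list holds 49 genes, all tested, and includes E2f1, E2f2, E2f7 and E2f8. In PQ 39 were lower and 10 not called, and the list median lay at -0.59 against -0.001 over all genes tested. Relative to the control mean, the list median was -0.57 in PQ 1 and -0.57 in PQ 2, and -0.07 and 0.07 in the control libraries. After Mybl2, the lowest was Pold1 at -1.001 (SE 0.11, adjusted p = 9e-06 by edgeR). In NAC 7 were higher and 1 lower, the lower one being E2f1 itself, and the median was 0.14. The highest were Cdc6, a replication licensing factor, at 0.60 (SE 0.14, adjusted p = 0.0048) and E2f7, followed by Mcm4 at 0.49 (SE 0.11, adjusted p = 0.0044). The Cdc6 and Mcm4 calls were lost without control 1 or NAC 1, with Mcm4 at 0.31 (adjusted p = 0.057) without control 1.

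The G2/M genes bound by the DREAM complex fell alongside. Of 26 genes, 25 were lower in PQ and 1 not called, with a median of -0.62, and leaving out PQ 1 left 16 called. Mki67 had -1.13 (SE 0.10, adjusted p = 5.7e-07 by edgeR) and Aurkb, a mitotic kinase, -0.96 (SE 0.10, adjusted p = 4.1e-06). In NAC none of the 26 was called by edgeR, DESeq2 or limma, 6 had an unadjusted p under 0.05 by edgeR, and the median was 0.08.

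**Figure D4:**
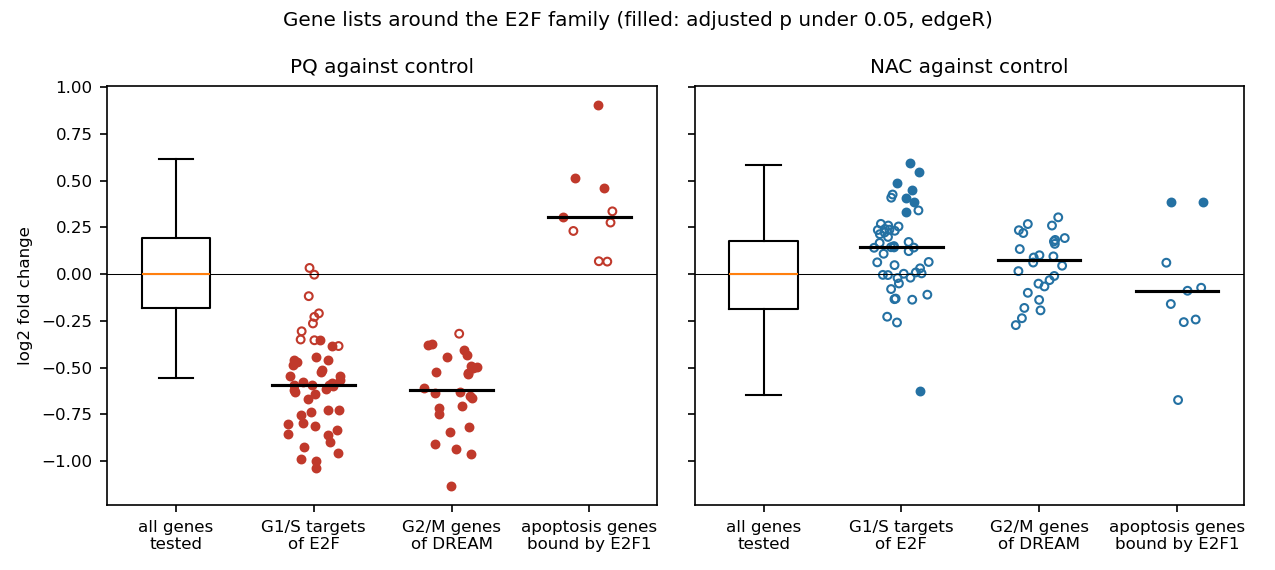
Log2 fold change (vertical axis) of single genes of 3 lists in PQ and in NAC against control, filled where the adjusted p by edgeR was under 0.05, with a line at the list median, beside a box of all 11717 genes tested (median, quartiles and whiskers at the 5th and 95th percentiles). The G1/S and G2/M lists lie at medians of -0.59 and -0.62 in PQ and of 0.14 and 0.08 in NAC.

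Apoptosis genes that E2F1 can bind leaned upward in PQ. Of 10, 9 were tested, 4 were higher and 5 not called, with a median of 0.31. Pmaip1, encoding NOXA, had 0.91 (SE 0.21, adjusted p = 0.0057 by edgeR, lost without PQ 1) and Bcl2l11, encoding BIM, 0.52 (SE 0.14, adjusted p = 0.015, lost without control 1, PQ 1 or PQ 2). Several of these genes, Pmaip1 among them, are also p53 targets. In NAC the list median was -0.09, and Bid was higher, at 0.39 (adjusted p = 0.043). The Bid call was kept in 8 of 14 alternatives and lost without control 2, NAC 1 or NAC 2, with adjusted p up to 0.176.

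Genes that set E2F protein levels or activity gave 3 of 8 lower in PQ. Chek1, a checkpoint kinase, had -0.76 (SE 0.14, adjusted p = 0.00091 by edgeR) and Fbxo5, which encodes the inhibitor EMI1 of the anaphase-promoting complex, -0.58 (SE 0.13, adjusted p = 0.0030). In NAC the deacetylase gene Sirt1 was higher, at 0.48 (SE 0.14, adjusted p = 0.027), a call lost without control 2 or NAC 1, with the RNA kit and sequencer as a covariate (adjusted p = 0.058), with the replicate block (adjusted p = 0.053) and with DESeq2 (adjusted p = 0.063). Of 12 partners of E2F6 in its Polycomb complex, 1 was lower in PQ, Cbx3 at -0.43 (SE 0.11, adjusted p = 0.0092, lost without PQ 1), and 11 were not called. In NAC none was called by edgeR, DESeq2 or limma, and 2 had an unadjusted p under 0.05 by edgeR. Of 12 germ line genes listed as repressed through E2F6, Tdrkh alone passed the filter, at a mean of 26.0 FPKM, 7 had at most 3 counts in each library, and Mael, Dazl and Tex101 had none. Tdrkh was not called in PQ (-0.22, adjusted p = 0.146) or NAC (0.10, adjusted p = 0.534).

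Promoter windows of 250 bases before and 50 after the annotated start, from RefSeq on GRCm38.p6, were searched for the E2F words TTTCCCGC, TTTCGCGC, TTTGCCGC and TTTGGCGC on both strands. Windows were found for 8 of the 10 genes and not for E2f4 and E2f5. A word was found for E2f2, E2f3, E2f7 and Tfdp1. E2f2 and E2f3 each have a second annotated start, whose window held neither an 8-letter nor a 7-letter word. For E2f8 only a 7-letter form without the first T was present. Of all 32851 windows, 2.26% held an 8-letter word and 9.57% a 7-letter one. The 7-letter share was 20.6% among tested genes with a window. The window given for E2f1 lay within exons of its annotated transcripts for all 250 bases before the start, 190 of them coding, so it does not cover the region upstream of the gene's first annotated start. A window that holds the word is shown for each of these 4 genes, with the word in capitals, and for E2f8 the window with the 7-letter form.
E2f7, chr10:110745189-110745488, plus strand: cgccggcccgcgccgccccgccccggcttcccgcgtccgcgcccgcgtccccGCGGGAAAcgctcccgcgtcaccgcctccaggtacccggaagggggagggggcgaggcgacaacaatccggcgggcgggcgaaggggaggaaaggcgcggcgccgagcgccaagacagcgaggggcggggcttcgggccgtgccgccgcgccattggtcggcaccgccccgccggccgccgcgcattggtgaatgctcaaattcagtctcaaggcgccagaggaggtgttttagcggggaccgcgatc
E2f8, chr7:48881547-48881846, minus strand: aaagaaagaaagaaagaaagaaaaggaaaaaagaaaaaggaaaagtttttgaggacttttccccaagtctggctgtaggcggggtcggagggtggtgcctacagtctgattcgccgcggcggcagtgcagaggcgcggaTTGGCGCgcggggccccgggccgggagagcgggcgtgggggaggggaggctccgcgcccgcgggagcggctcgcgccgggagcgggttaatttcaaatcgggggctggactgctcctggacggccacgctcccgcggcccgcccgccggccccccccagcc
E2f2, chr4:136172024-136172323, plus strand: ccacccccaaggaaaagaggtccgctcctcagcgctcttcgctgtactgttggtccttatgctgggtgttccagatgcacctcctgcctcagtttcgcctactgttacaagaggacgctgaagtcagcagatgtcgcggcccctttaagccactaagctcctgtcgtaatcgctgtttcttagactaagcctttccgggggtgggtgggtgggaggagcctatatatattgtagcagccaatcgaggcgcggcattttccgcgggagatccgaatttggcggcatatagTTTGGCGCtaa
E2f3, chr13:29986014-29986313, minus strand: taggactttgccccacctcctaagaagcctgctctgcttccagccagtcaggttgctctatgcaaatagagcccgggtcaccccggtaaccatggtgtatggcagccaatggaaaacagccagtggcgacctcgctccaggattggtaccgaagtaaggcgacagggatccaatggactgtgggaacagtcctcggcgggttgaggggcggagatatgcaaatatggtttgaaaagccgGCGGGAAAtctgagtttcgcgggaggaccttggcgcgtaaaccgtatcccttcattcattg
Tfdp1, chr8:13338501-13338800, plus strand: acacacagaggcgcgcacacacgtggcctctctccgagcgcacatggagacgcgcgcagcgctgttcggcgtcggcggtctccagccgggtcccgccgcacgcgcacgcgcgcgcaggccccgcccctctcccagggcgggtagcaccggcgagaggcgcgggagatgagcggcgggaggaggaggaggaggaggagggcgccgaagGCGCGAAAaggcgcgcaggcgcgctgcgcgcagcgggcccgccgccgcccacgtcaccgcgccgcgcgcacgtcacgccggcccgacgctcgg
Counted on the gene strand from the start, the word spans -198 to -191 in E2f7, 40 to 47 in E2f2, -11 to -4 in E2f3 and -43 to -36 in Tfdp1, and the 7-letter form -111 to -105 in E2f8. The words in E2f7 and E2f3 are TTTCCCGC on the opposite strand.

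Among tested genes with a window, 5.04% of 9339 held an 8-letter word. The share was 10.3% of the 894 genes called lower in PQ against control and 2.31% of the 909 called higher. It was 6.06% of the 842 called higher in NAC and 2.7% of the 889 called lower. In the G1/S list 18 of 41 genes with a window held one, and in the G2/M list 1 of 21. The 471 tested genes with a word lay at a median of -0.09 on the log2 scale in PQ, with 92 lower and 21 higher, and of 0.04 in NAC, with 24 lower and 51 higher. A match describes the letters of these windows and not binding.

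Markers of other lineages changed mainly in NAC. Of 5 astrocyte markers, 3 were higher in NAC, and the summed FPKM of the list was 46.2 and 51.2 in control, 49.5 and 52.7 in PQ, and 106.2 and 106.9 in NAC, led by Aldoc. On the log2 scale NAC raised Aqp4 by 1.76 (adjusted p = 1.4e-05 by edgeR) and Gfap by 1.23 (adjusted p = 0.00031), and PQ raised Aldh1l1 by 1.17 (adjusted p = 0.0035, lost without PQ 1). Of 8 oligodendrocyte lineage markers, 4 were tested, and the list had a summed FPKM of 651.7 and 753.3 in control, 768.0 and 666.5 in PQ, and 816.1 and 925.6 in NAC, led by Olig1. Olig1 had 0.41 in NAC (adjusted p = 0.017, lost at 0.25 without control 1, at 0.27 without NAC 2 and, with an adjusted p of 0.066, with the RNA kit and sequencer as a covariate), while Mog was listed in no library and Sox10 lay near 0. Of 7 neuron markers only Map2 was tested, at 0.77 in NAC (adjusted p = 1.1e-05), while Rbfox3 was at 0. Their summed FPKM was 38.4 and 36.3 in control, 34.0 and 35.1 in PQ, and 65.5 and 59.0 in NAC. Of 7 microglia markers 5 had at most 3 counts in each library, and P2ry12 was the one tested, at 1.18 in NAC (adjusted p = 0.0033, lost without NAC 1). The summed FPKM of that list was at most 4.50 in any library. Endothelial, fibroblast and blood markers all lay below the filter, with Cldn5, Hbb-bs and Hbb-bt at 0, and of 3 ependymal markers 2 were tested, and against control neither was called in PQ or NAC by edgeR, DESeq2 or limma, with 0 at an unadjusted p under 0.05 by edgeR. The part of these shifts in the E2F values was not tested.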

How the data were processed

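RNA-seq of 6 NSPC libraries was analysed, 2 each of control, PQ and NAC, grouped by the sample labels. The authors deposited, per gene and library, an expected count, an estimate that shares reads between transcripts and need not be whole, and an FPKM value relative to transcript length and sequencing depth. The submitters' notes name TopHat2 2.0.11 and Cufflinks 2.1.1 with build mm9 for control 1 and PQ 1, and HISAT2 2.0.4, Bowtie2 2.2.5 and RSEM with mm10 for the other libraries, whereas all 6 deposited tables have the columns RSEM writes. Counts of genes that overlap another, such as E2f5 and Rbis, or that have a pseudogene copy, such as Tfdp1, are less certain. Genes without a line in a table were taken as 0.

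Expected counts were rounded and tested with the quasi-likelihood test of edgeR 4.0.16 (R 4.3.3) after TMM scaling, with all 6 libraries fitted jointly and no covariate. Genes averaging 1 FPKM or more were tested, p-values were adjusted over these genes by the Benjamini-Hochberg method, and the threshold was 0.05. CPM use the TMM library sizes. Each SE is the log2 fold change divided by the square root of F. The fits were tested on simulated data. The members and gene lists, the latter from general knowledge, were chosen with earlier results of these data known. Named genes outside the family were taken from the regulators in the lists of pocket proteins, G1 cyclins and kinases, CDK inhibitors and MuvB, the called genes with the 2 largest rises and falls of each other list in either treatment, and the 3 genes nearest in profile to each member called in PQ. Alternatives were DESeq2 1.42.0 or its size factors, limma 3.58.1 on log2(FPKM + 1) or log2(FPKM + 0.1), no filter, a covariate for RNA kit and sequencer, a replicate block, only the 4 libraries compared, and leaving out each library, where a lone library is assumed to vary like the other groups. Those for list counts and genes outside the family were added after seeing the data. A gene that never exceeded 3 counts was taken as undetectable.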

Additional observations from a re-analysis of the deposited data

How the results depend on the processing

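Of the alternative counts of called members, all genes and list genes, 83 stayed close, 28 were weaker and 1 stronger. Without a single library a group keeps 1 library, which is assumed to vary like the others. With the RNA kit and sequencer as a covariate, 3 members were called in PQ against control and 4 in PQ against NAC. The replicate block also left 4 members called in PQ against NAC. The 2 members called in PQ against control became 1 with DESeq2, with limma on log2(FPKM + 1) or log2(FPKM + 0.1), with the replicate block and with only the 4 libraries compared, and ranged from 1 to 4 on leaving out each library. The 4 members called in NAC against control became 2 with the RNA kit and sequencer as a covariate, with the replicate block and with only the 4 libraries compared, and ranged from 1 to 4. The 6 members called in PQ against NAC became 3 with DESeq2 and with limma on either scale, and ranged from 3 to 6. Leaving out each library, the genes called ranged from 866 to 2206 in PQ against control, 1286 to 2126 in NAC against control and 2343 to 4207 in PQ against NAC. The G1/S genes called lower in PQ ranged from 32 to 41 and the G2/M genes from 16 to 26. For 13 other values the sign reversed, none of them past the threshold. With the RNA kit and sequencer as a covariate E2f2 in NAC was -0.015, and with limma E2f8 in NAC was 0.044 on log2(FPKM + 1) and 0.046 on log2(FPKM + 0.1). The others came from leaving out a library. Over the libraries left out, E2f3 ranged from -0.108 to 0.159 in PQ and E2f5 from -0.176 to 0.018, reversed without control 1 and for E2f3 also without PQ 2 (-0.023). In NAC, E2f2 ranged from -0.108 to 0.259 and E2f4 from -0.034 to 0.126, both reversed without control 1, E2f6 from -0.035 to 0.305, reversed without NAC 1, and E2f8 from -0.097 to 0.097, reversed without control 2 and without NAC 1 (0.025). In PQ against NAC, E2f5 ranged from -0.012 to 0.167, reversed without NAC 1, and E2f6 from -0.010 to 0.330, reversed without NAC 2. The cause was not tested. The replicate block followed 2 sets of library numbers, and deviations from the group mean correlated across genes at -0.04 between control 1 and PQ 1, -0.07 between control 1 and NAC 2 and 0.06 between PQ 1 and NAC 2, close to 0.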
